A study of Danio rerio with 12 samples.

Results

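The free-running rhythm of gene expression in the zebrafish pineal gland was followed in the 6 arrays that were hybridised with RNA from fish kept in constant darkness, out of 12 arrays in the series. These arrays were chosen by their treatment label alone and carry circadian times (CT) 2, 6, 10, 14, 18 and 22, in hours, with CT12 taken as the start of the subjective night. The fish were adult Tg(aanat2:EGFP)Y8 males and females of 0.5 to 1.5 years, in which the promoter of aanat2, a gene of the pineal photoreceptor, drives a green fluorescent protein. All had been raised at 28 °C under 12 h of light and 12 h of darkness, and they were moved to constant darkness at the end of the day before sampling. Each array held the pooled RNA of 12 pineal glands, so that each time point is 1 pool and 1 array, males and females were not separated, and no time point was repeated. Subjective day (CT2, CT6 and CT10) and subjective night (CT14, CT18 and CT22) therefore have 3 arrays each, taken at 3 different times. The errors of day and night means and of their difference include the change within a side as well as the spread between pools. The error of a cosine amplitude comes from what the fitted cosine leaves over, which holds lack of fit and the spread between pools together. In pooled tissue, fewer cells of a type and less RNA per cell cannot be told apart.

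The zebrafish pineal gland is a photoreceptive organ that contains its own circadian clock and secretes melatonin at night. In the vertebrate clock, CLOCK and BMAL proteins activate genes through E-box elements, and the products of some of these genes, among them the PER, CRY, BHLHE40, BHLHE41 and CIART proteins, repress the pair. A connected loop acts on the gene of BMAL1 through elements bound by ROR activators and NR1D repressors, and a further one acts through D-box elements, bound by activators of the PAR bZIP family such as TEF and by the repressor NFIL3. In this gland the rhythm is read out through aanat2, which encodes the arylalkylamine N-acetyltransferase that controls the rate of melatonin synthesis.

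Values are log2(signal + 13), where the signal is the linear MAS5 value of a probe set, and 9301 probe sets whose mean exceeded a log2 value of 6.07 were tested, of which 6694 have 1 gene symbol and stand for 6046 genes. A 24 h cosine was fitted to each, with an F-test in limma and Benjamini-Hochberg adjustment over all 9301, and a probe set is referred to as called where the adjusted p was under 0.05. Amplitudes are given on the log2 scale from the mean to the peak, with their standard error (SE), and a fold is that of the fitted peak over the fitted trough. Because 13 was added to the signals, folds of dim genes are understated.

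Of the 9301 probe sets, 20 were called, which is 0.215%. Of these, 7 carry a gene symbol and 13 do not. Counted by gene, with the brightest probe set standing for each, 6 of 6046 genes were called (0.0992%). These were 5 regulators of the clock, ciarta, bhlhe41, nr1d2b, rorcb and nfil3-5, and the photoreceptor gene rbp3. Their amplitudes ran from 1.16 to 2.37, against a median of 0.27 over all 9301 probe sets. Of these genes, rorcb passed the filter only through its day arrays, as described below. Without the intensity trend in limma, ciarta was the only probe set called. At an unadjusted p under 0.05, 945 of the 6046 genes passed, which is 15.6% and the background for the counts of each gene group given below.

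**Figure D1:**
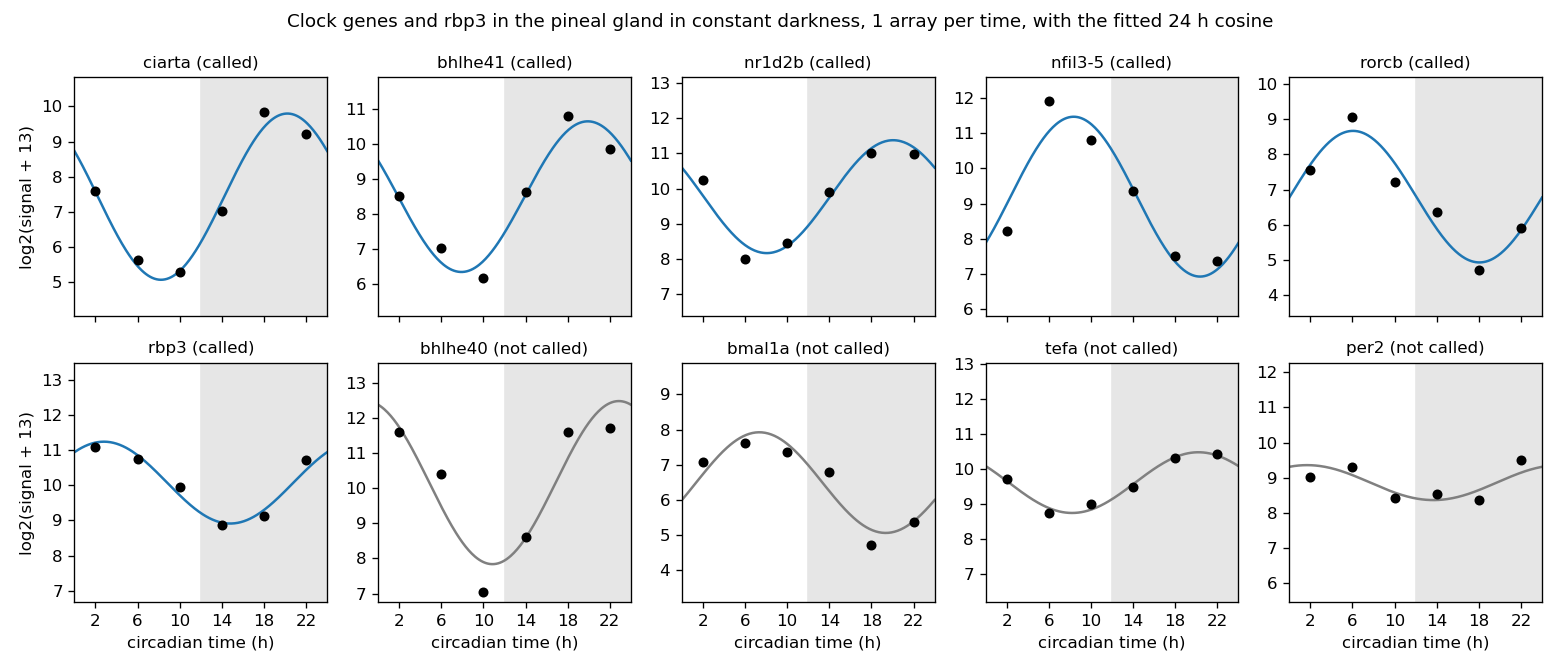
Log2(signal + 13) of 10 genes against circadian time in h, with 1 point per array, the fitted 24 h cosine (blue where called, grey where not) and subjective night shaded. Every panel spans the same number of log2 units. The points of ciarta, bhlhe41 and nr1d2b are highest at CT18, those of nfil3-5 and rorcb are highest at CT6, and those of per2 stay within 8.36 to 9.51.

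Among the repressors of CLOCK and BMAL, ciarta had the largest amplitude of all called genes. Its log2 values were 7.59, 5.62, 5.28, 7.03, 9.85 and 9.23 from CT2 to CT22. The 2 later night arrays were the highest and the 2 later day arrays the lowest, while CT14 lay below CT2. The fitted amplitude was 2.37 ± 0.174 (SE, n = 6), a 26.6-fold range with its peak at CT20.2, and the adjusted p was 0.0099 in limma. bhlhe41, a basic helix-loop-helix repressor, read 8.50, 7.03, 6.17, 8.62, 10.78 and 9.85 at the same times. All 3 night arrays were above all 3 day arrays, with CT14 only just above CT2. Its amplitude was 2.14 ± 0.208, with a peak at CT19.9, a 19.5-fold range and an adjusted p of 0.0203 in limma. Without the CT2 array bhlhe41 was no longer called, at an adjusted p of 0.098, whereas ciarta was called when any 1 of the 6 arrays was left out.

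bhlhe40, the paralog of bhlhe41, did not pass the threshold in the fit to 6 arrays although its range was as wide. It read 11.61, 10.39, 7.04, 8.60, 11.61 and 11.71, that is, high at CT18, CT22 and CT2 and lowest at CT10. The fitted amplitude was 2.32 ± 0.334 with a peak at CT22.9, later than the CT19.9 of bhlhe41 by a difference that was not tested, and the adjusted p was 0.0622. Without CT6, CT18 or CT22 the adjusted p was 0.0329, 0.0423 or 0.0282, and without CT2, CT10 or CT14 it was 0.209, 0.112 or 0.128. The cryptochromes were less regular. cry2 read 8.11, 7.71, 7.05, 7.68, 9.02 and 8.28 (amplitude 0.74, peak CT20.7, adjusted p 0.193), and a second probe set of cry2 gave 1.16, peaking at CT20.8, with an adjusted p of 0.067. Both of its probe sets were highest at CT18 and lowest at CT10, and neither was called.

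per2 and cry1a, clock genes that light induces in zebrafish, gave no called rhythm in darkness. per2 read 9.01, 9.31, 8.43, 8.54, 8.36 and 9.51, with an amplitude of 0.50 ± 0.171 and an adjusted p of 0.304. cry1a read 6.83, 6.65, 6.81, 6.12, 7.12 and 6.22, with an amplitude of 0.07 ± 0.222 and an adjusted p of 0.975. Neither gene separated day from night, and cry1a stayed within about 1 log2 unit throughout. cry5, which encodes a photolyase that repairs ultraviolet damage to DNA, was highest at CT2 (8.09) and lowest at CT14 (6.44), at an adjusted p of 0.197. A dimmer probe set of cry5 was highest at CT6 (6.94) and lowest at CT14 (5.67), at an adjusted p of 0.304. Over the list of repressors, 5 of 7 kept genes passed at an unadjusted p under 0.05 against 15.6% of all genes, with a median amplitude of 0.82 against 0.26. The count was 3 without the CT10 array. per1a, per1b, per3, nr1d1, dbpb and asmt had no kept probe set and were not analysed here.

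The loop of NR1D repressors and ROR activators held 2 called genes, nr1d2b and rorcb, of which rorcb was kept only through its day arrays. Their fitted peaks were CT20.1 and CT6.05, a difference that was not tested. nr1d2b, a Rev-erb nuclear receptor that represses transcription, read 10.24, 7.995, 8.46, 9.91, 11.02 and 10.997. It was low at CT6 and CT10 and high at CT18, CT22 and CT2. Its amplitude was 1.61 ± 0.167, a 9.27-fold range with a peak at CT20.1 and an adjusted p of 0.0203 in limma, and it was called when any 1 array was left out but not when the intensity trend was. A dimmer probe set for the same gene gave an amplitude of only 0.41 and an adjusted p of 0.497, and the 2 probe sets differed in amplitude.

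rorcb, an activator of the ROR family, read 7.57, 9.05, 7.21, 6.36, 4.70 and 5.91. All 3 day arrays were above all 3 night arrays, and CT6 stood highest. The amplitude was 1.87 ± 0.219, with a peak at CT6.05, a 13.4-fold range and an adjusted p of 0.0281 in limma. The CT18 signal was 12.98, no larger than the 13 added, so the amplitude and fold rest in part on a reading near the floor. The night mean of rorcb, 5.65, was under the filter's 6.069, so rorcb was kept only through its day arrays. Its adjusted p-values are therefore no support for a rhythm. The call was lost without CT2 (adjusted p 0.119), CT6 (0.179) or CT18 (0.0767). bmal1a, which encodes the partner of CLOCK, had a similar course at 7.07, 7.62, 7.37, 6.79, 4.73 and 5.37. Its day arrays were also all above its night arrays. The amplitude of bmal1a was 1.43 ± 0.224 with a peak at CT7.35, at an adjusted p of 0.0725, which was not called. Its CT18 signal, 13.5, was likewise near the floor. The night mean of bmal1a, 5.63, was also under the filter, so the same limit holds for its adjusted p. clocka ranged from 5.71 at CT14 to 7.19 at CT2, with an adjusted p of 0.226. In this list of activators and nuclear receptors, 4 of 8 kept genes passed at an unadjusted p under 0.05, against 15.6% of all genes. The median amplitude was 0.61. The 4 include rorcb and bmal1a, which were kept only through their day arrays, so neither the count nor the median is support for a rhythm of the list.

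Of the 3 kept D-box factors, 1 was called. nfil3-5, a repressor at D-boxes, read 8.22, 11.91, 10.81, 9.36, 7.50 and 7.38. It was highest at CT6, and CT10 and CT14 followed in falling order. Its amplitude of 2.27 ± 0.269 was the second largest among called genes, with a peak at CT8.37, a 23.4-fold range and an adjusted p of 0.0281 in limma. It was not called without CT14 (adjusted p 0.056) or CT18 (0.0559). tefa, the activator at the same elements, was in near antiphase at 9.71, 8.74, 9.003, 9.48, 10.31 and 10.41. Its amplitude was smaller, 0.86 ± 0.119, with a peak at CT20.2 and an adjusted p of 0.0577, which was not called. nfil3-6, a paralog of nfil3-5, had another phase again, at 10.42, 10.50, 8.90, 9.06, 10.04 and 10.998 (amplitude 1.00, peak CT0.113, adjusted p 0.103). All 3 kept genes of this list passed at an unadjusted p under 0.05.

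Genes that act on clock proteins after translation gave no called member. Of 13 kept kinase and ubiquitin ligase genes, 2 passed at an unadjusted p under 0.05, which is 15.4% and close to the background of 15.6%. These were fbxl3a, which marks cryptochromes for breakdown (10.07, 10.88, 10.95, 10.58, 10.18 and 9.89, adjusted p 0.135), and csnk1db, a casein kinase that phosphorylates PER proteins (10.79, 10.54, 10.18, 10.42, 10.95 and 11.23, adjusted p 0.177). Neither was called.

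**Figure D2:**
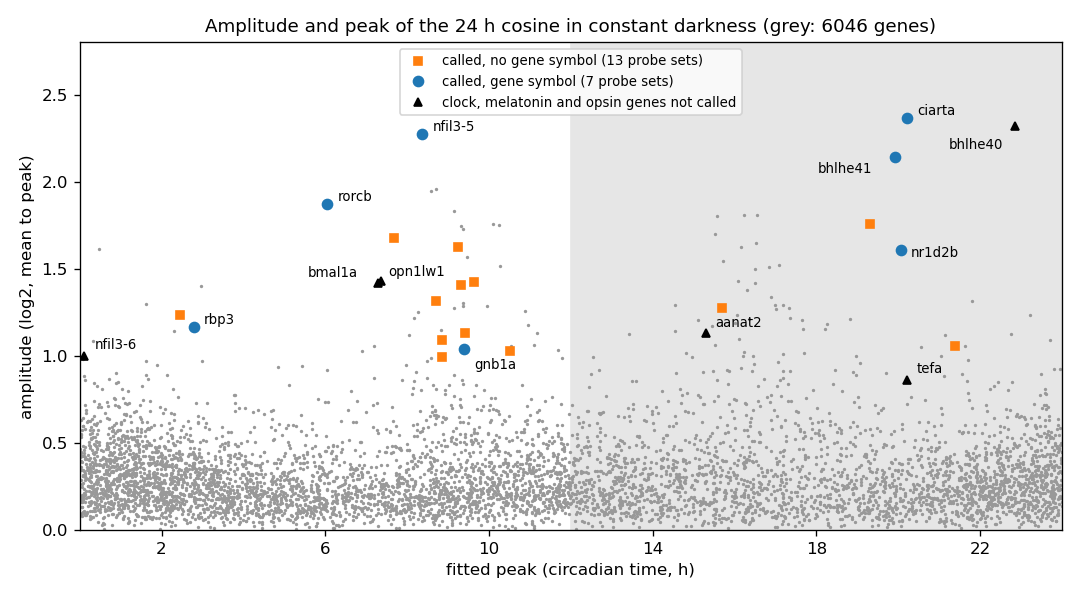
Fitted amplitude on the log2 scale against fitted peak time in h for 6046 genes (grey), with the 7 called probe sets that carry a symbol (blue circles), the 13 that do not (orange squares) and 6 genes that were not called (black triangles). Subjective night is shaded. Of the 20 called probe sets, 10 lie between CT8 and CT12.

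Of the 20 called probe sets, 10 (50%) had their fitted peak between CT8 and CT12. The share was 17.9% of all kept genes and 20.7% of the 945 genes at an unadjusted p under 0.05. Of the 20, 14 had a higher mean by day than by night, as did 57.9% of all kept genes. These shares count genes by 1 probe set each, and whether several of the 20 stand for 1 transcript was not tested. The 13 called probe sets without a gene symbol had amplitudes of 0.99 to 1.76. The largest of these had log2 values of 9.30, 8.25, 7.85, 9.94, 11.54 and 10.55, all night arrays above all day arrays and a peak at CT19.3. The next largest had its peak at CT7.69. The platform table used here names no gene for them. gnb1a, which encodes a G protein beta subunit, was called by a second probe set (amplitude 1.04, peak CT9.39, adjusted p 0.0436), while its brighter probe set was not (amplitude 0.40, adjusted p 0.316).

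None of the next 14 genes by p was called, and those not described elsewhere fell into 3 phases. psmd3, a subunit of the proteasome (peak CT23.2), LOC100151028 (CT0.469), smc4, a condensin subunit (CT1.62), and hsf2, a heat shock factor (CT21.1), had fitted peaks around the end of the subjective night. Of these, smc4 was highest on a day array, CT2 (8.08), and the others at CT22. gadd45ga, a growth arrest gene (CT8.49), ackr3b, a chemokine scavenger receptor (CT8.04), casz1, a zinc finger transcription factor (CT8.64), ifi30a, a lysosomal thiol reductase (CT9.95), and ndrg1b (CT9.37) peaked in the later subjective day. tmem178a (CT15.5) and zic2b, a zinc finger transcription factor of the dorsal brain (CT14.8), had fitted peaks early in the night. Both were highest at CT18 and next highest at CT14, the arrays on which the brain neuron markers given below were also highest. Their amplitudes ran from 0.83 for casz1 to 1.70 for tmem178a, and their adjusted p-values from 0.0548 to 0.0656. A dimmer probe set of casz1 differed in phase, with an amplitude of 0.37, a peak at CT2.49 and an adjusted p of 0.493. Without the CT22 array tmem178a (adjusted p 0.0112), casz1 (0.0418), zic2b (0.0391) and smc4 (0.0391) were called, without CT10 LOC100151028 (0.0372) and ackr3b (0.0372), and without CT6 ndrg1b (0.0424). The day mean of tmem178a, 5.90, was under the filter's 6.069. It was therefore kept only through its night arrays, and its adjusted p-values are no support for a rhythm.

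The genes of melatonin synthesis were examined as the output of the gland. aanat2 read 9.23, 9.26, 10.99, 11.42, 10.91 and 10.64 from CT2 to CT22. The values at CT2 and CT6 were low and the other 4 high, so that CT10, a day array, lay among the night arrays. The amplitude was 1.13 ± 0.179 with a peak at CT15.3 and a 4.79-fold range, at an adjusted p of 0.0725, which was not called. Without the CT22 array the adjusted p was 0.0169, in a fit that called 115 probe sets against 20 with all 6 arrays. Leaving out any other single array gave an adjusted p of 0.0559 to 0.252, so that aanat2 was not called. The night mean of aanat2 was 10.99 ± 0.398 (SD, n = 3) and its day mean 9.83 ± 1.01, a difference of 1.16 ± 0.443 (SE) with an adjusted p of 0.841 in limma.

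tph1a, the tryptophan hydroxylase that starts the pathway, was highest at CT10 in both of its probe sets, and its fitted peaks, CT11.1 and CT11.3, were earlier than the CT15.3 of aanat2, a difference that was not tested. Its brighter probe set read 10.07, 10.42, 11.15, 10.72, 10.23 and 10.17 (adjusted p 0.2), and the second had an adjusted p of 0.0869. Of 12 kept genes of the melatonin and pineal list, 3 passed at an unadjusted p under 0.05, namely aanat2, tph1a and unc119.2 (1 without CT10 and 5 without CT22), and the median amplitude of 0.24 was below the 0.26 of all genes. exorh, the opsin of pineal photoreceptors, read 9.90, 10.24, 10.40, 10.06, 9.52 and 11.03 with an adjusted p of 0.879. The photoreceptor transcription factors crx and otx5 had adjusted p-values of 0.86 and 0.511. The mean of this list stayed between 10.33 and 10.78 on all 6 arrays.

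The array's control probe set for a destabilised EGFP, pd2EGFP, was the only EGFP measure used, and the labels do not say that it matches the EGFP of the transgene. It read 7.30, 6.59, 7.07, 5.20, 5.50 and 7.33, lowest at CT14 and CT18, where aanat2 read 11.42 and 10.91. At CT10 and CT22, where aanat2 read 10.99 and 10.64, the pd2EGFP probe set was higher (7.07 and 7.33). The difference between night and day, -0.98 on the log2 scale, had an exact permutation p of 0.4, two-sided, and 3 arrays against 3 cannot go below 0.1.

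**Figure D3:**
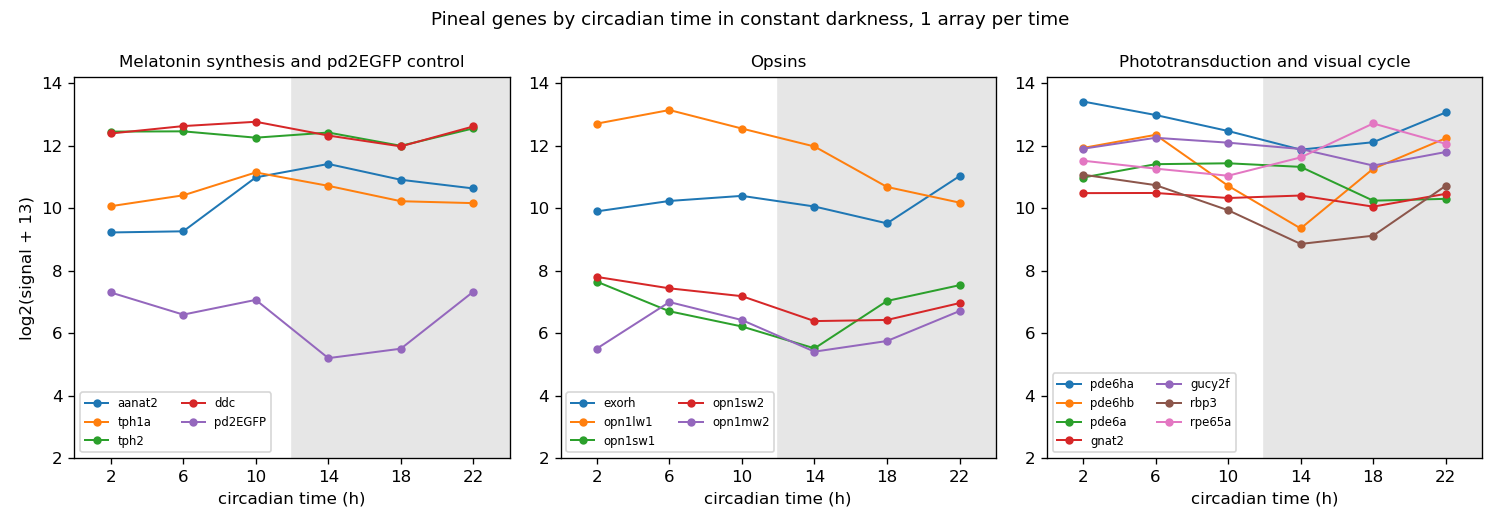
Log2(signal + 13) against circadian time in h, with 1 point per array, for the melatonin genes and the array's pd2EGFP control probe set (left), opsins (middle) and genes of phototransduction and the visual cycle (right), with subjective night shaded. aanat2 lies at 9.23 at CT2 and at 11.42 at CT14, the pd2EGFP probe set is lowest at CT14 (5.20), and rbp3 is lowest at CT14 (8.86).

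Photoreceptor genes formed the other group with a called member. rbp3, the retinoid carrier of the space between photoreceptors and their supporting cells, read 11.08, 10.74, 9.94, 8.86, 9.12 and 10.72. It was highest at CT2, CT6 and CT22 and lowest at CT14 and CT18. Its amplitude was 1.16 ± 0.138, a 5.03-fold range with a peak at CT2.8 and an adjusted p of 0.0281 in limma. The call was lost without CT2 (adjusted p 0.151), CT6 (0.0834), CT14 (0.154) or CT18 (0.0559). pde6ha, an inhibitory subunit of the cone phosphodiesterase, had nearly the same phase at 13.42, 12.99, 12.48, 11.88, 12.12 and 13.07 (peak CT2.4, adjusted p 0.0656). It was not called in the fit to 6 arrays and was called without CT22, at an adjusted p of 0.0332. pde6hb, a related subunit, ranged from 9.36 at CT14 to 12.35 at CT6 (peak CT1.63, adjusted p 0.121).

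opn1lw1, a red cone opsin, was the photoreceptor gene with the widest day-night difference. It read 12.71, 13.15, 12.55, 11.98, 10.68 and 10.18, with all day arrays above all night arrays, a peak at CT7.3 and an adjusted p of 0.0725. A further 3 genes of the visual list, chosen after their values were seen, lay in different phases. The ultraviolet opsin opn1sw1 peaked at CT0.0969 (7.65 at CT2, 5.51 at CT14) and the blue opsin opn1sw2 at CT4.04, with all day arrays higher. rpe65a, the isomerase of the visual cycle, was higher on all night arrays, with a maximum of 12.72 at CT18. None of the 3 was called, with adjusted p-values of 0.108, 0.139 and 0.128.

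In the phototransduction list 11 of 20 kept genes (55%) passed at an unadjusted p under 0.05 against 15.6% of all genes, and all 11 had their fitted peak between CT0 and CT12, the window that also holds 560 (59.3%) of the 945 genes at that threshold. The count was 7 (35%) without the CT10 array, when 12.9% of all genes passed. The median amplitude was 0.40, and the median difference of night minus day -0.24 against -0.05 for all genes. Photoreceptors of the pineal gland and of the retina share these genes, so that the list does not tell them apart. The mean of the rod and cone list was 9.59, 9.73, 9.30, 8.77, 9.01 and 9.39 from CT2 to CT22.

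The comparison of subjective day with subjective night, 3 arrays against 3, called no probe set in limma (0 of 9301, 0%). The smallest adjusted p was 0.266, and 542 probe sets (5.83%) had an unadjusted p under 0.05, of which 304 were higher at night and 238 higher by day. Among the 6046 genes, the 3 night arrays all lay above the 3 day arrays for 244 (4.04%), and all below them for 387 (6.4%). The 10 genes of each direction with the largest mean difference among these are given next, none of them called. Their adjusted p-values were 0.841 to 0.884, and they are a description of these arrays.

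**Figure D4:**
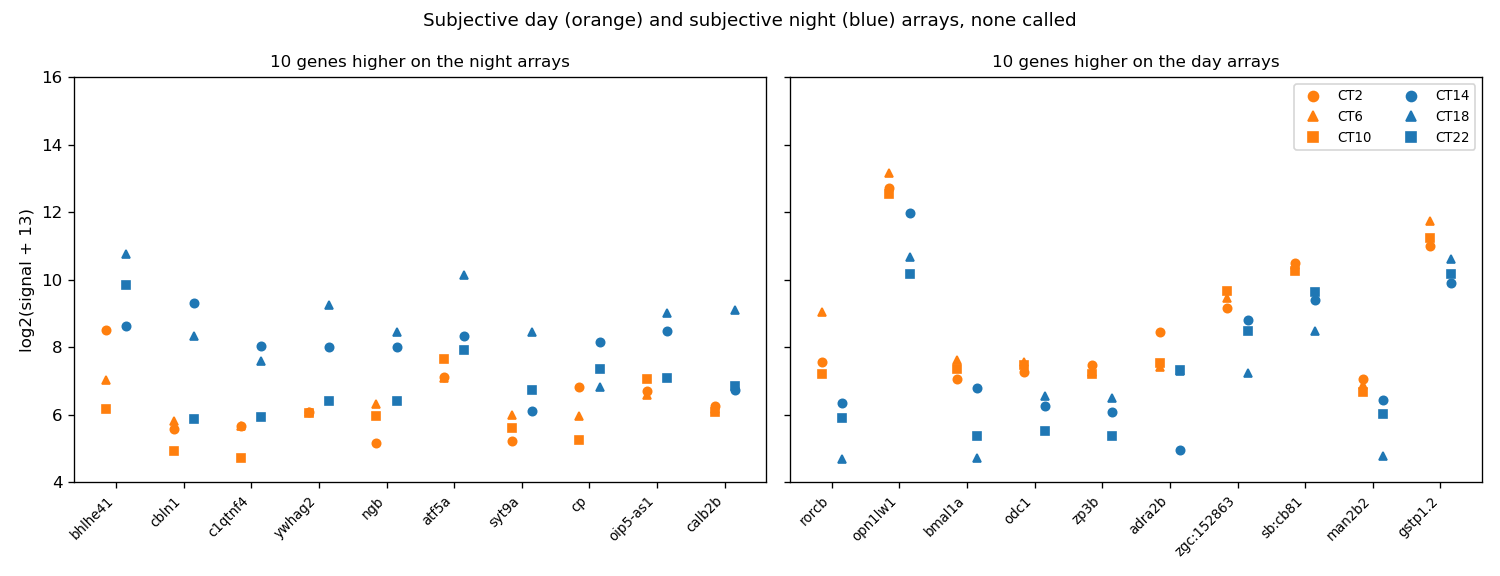
Log2(signal + 13) on the 3 subjective day arrays (orange) and the 3 subjective night arrays (blue) for the 10 genes with the largest mean difference in each direction whose arrays do not overlap. For cbln1, c1qtnf4, ywhag2 and ngb the CT22 array (blue square) lies close to the day arrays, while CT14 and CT18 lie well above them.

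On the night side the list is led by bhlhe41 and then by cbln1, a secreted organiser of synapses. cbln1 read 5.57, 5.81, 4.92, 9.30, 8.33 and 5.87, so that CT14 and CT18 stood far above the rest and CT22 just above the highest day array. Its night mean was 7.83 ± 1.77 (SD, n = 3) and its day mean 5.44 ± 0.461, a difference of 2.40 ± 0.726 (SE). c1qtnf4 (difference 1.85), ywhag2, a 14-3-3 protein (1.82), and ngb, the globin of neurons (1.80), had the same course. So did oip5-as1, a long noncoding RNA (1.40). atf5a, a transcription factor of the stress response (1.51), syt9a, a synaptotagmin (1.49), and calb2b, a calretinin of neurons (1.39), were highest at CT18. cp, the copper-carrying ceruloplasmin (1.44), was highest at CT14. Without the CT22 array the comparison called 53 probe sets, all higher at night. Among these were cbln1 (adjusted p 0.0149 in limma), c1qtnf4 (0.0284), ywhag2 (0.028), ngb (0.0315) and oip5-as1 (0.0274). The day means of cbln1 (5.44), c1qtnf4 (5.35), ngb (5.82), ywhag2 (6.067), syt9a (5.61) and cp (6.016) were under the filter's 6.069. These genes were therefore kept only through their night arrays, and their adjusted p-values are no support for a difference.

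The same arrays were highest for the markers of brain neurons. The mean of the 18 kept genes of that list was 8.64, 8.45, 8.35, 9.20, 9.78 and 8.41, highest at CT14 and CT18. The difference between night and day, 0.65 on the log2 scale, had an exact permutation p of 0.3. Of the 18 genes, 12 (66.7%) passed the cosine test at an unadjusted p under 0.05, and the count was 5 without the CT18 array. Of the 18, 4 had all night arrays above all day arrays (4.04% of all genes did), and 1 the reverse. snap25a, a protein of transmitter release, read 9.65, 8.79, 8.70, 11.48, 12.02 and 9.27, and it was called in the cosine fit without CT22 (adjusted p 0.0147) but not with all 6 arrays (0.179). Of the 8 kept oligodendrocyte genes, 5 were highest at CT18 and 3 had a lower mean at night than by day. mbpa, a myelin protein, read 10.48 at CT18 and between 6.97 and 7.83 on the other 5 arrays, whereas sox10, a transcription factor of the same list, was lowest there (8.65, against 9.77 at CT2). The mean of the 8 was 8.76 at CT18 against 7.55 to 7.90. How much of the night-high group goes with a different share of brain tissue in the pools was not tested.

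On the day side rorcb led, followed by opn1lw1 and bmal1a, all described above. odc1, the first enzyme of polyamine synthesis, read 7.27, 7.56, 7.47, 6.26, 6.56 and 5.52, a difference of -1.32 ± 0.295 (SE, n = 3 a side). The day values lay within 0.29 of each other and the night values were spread over about 1 log2 unit. zp3b, a protein of the egg coat, had the same size of difference (-1.32), and adra2b, an adrenergic receptor (-1.27), zgc:152863 (-1.26), sb:cb81 (-1.21), man2b2, a lysosomal mannosidase (-1.14), and gstp1.2, a glutathione transferase (-1.10), followed. adra2b owed its difference mainly to 1 array, with 4.97 at CT14 against 7.30 to 8.44 elsewhere. Without CT14 its difference was -0.49. The night means of rorcb (5.65), bmal1a (5.63), zp3b (5.99) and man2b2 (5.75) were under the filter's 6.069. These genes were therefore kept only through their day arrays, and their adjusted p-values are no support for a difference.

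Genes of the antioxidant defence leaned to the day. Of 32 kept members, 8 (25%) had all day arrays above all night arrays, against 6.4% of all genes, none had the reverse, and 26 had a lower mean at night, as did 3499 (57.9%) of all 6046 genes. prdx1, a peroxiredoxin, read 8.22, 8.91, 8.65, 8.27, 7.44 and 6.98 (peak CT8.22, adjusted p 0.0815). Its dimmer probe sets disagreed, with amplitudes of 1.34 (peak CT9.08, adjusted p 0.0603) and 0.14 (peak CT3.45, adjusted p 0.894). gpx1b, a glutathione peroxidase, read 10.30, 10.47, 9.41, 9.34, 9.15 and 9.33 (peak CT4.51, adjusted p 0.164). gpx1b was high at CT2 and CT6, whereas prdx1 was lowest at CT18 and CT22. By the cosine 8 of the 32 passed at an unadjusted p under 0.05, and 4 without the CT6 array. No member was called.

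Heat shock proteins and chaperones held no called member. Of 55 kept, 17 (30.9%) passed at an unadjusted p under 0.05, and 10 of these had their fitted peak between CT0 and CT4, the window that also holds 29.5% of all 945 genes at that threshold. The count was 9 (16.4%) without the CT2 array and 11 (20%) without CT14, when 13.2% and 9.31% of all genes passed. cct4, a subunit of the chaperonin that folds actin and tubulin, read 9.74, 9.23, 8.50, 8.63, 8.88 and 9.47 (peak CT0.882, adjusted p 0.12), and hspa8b read 7.70, 6.47, 6.02, 7.18, 7.35 and 7.98 (peak CT21.6, adjusted p 0.124). hsf2 was highest at CT18 and CT22 (10.41 and 10.49) and lowest at CT6 (8.51). CT2 and CT22 were also the arrays on which the largest numbers of all 6046 genes had their maximum (21.6% and 25.4%).

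No gene tied to the stress hormone response was called with all 6 arrays. klf9, a zinc finger gene that glucocorticoids induce, read 7.77, 7.48, 9.54, 9.59, 9.94 and 9.29 (peak CT16.1, adjusted p 0.087), and it was called without CT10 (adjusted p 0.0278) or CT22 (0.0472). hsd11b2, which inactivates cortisol, read 8.40, 9.36, 9.81, 9.94, 9.38 and 9.06 (peak CT12.8, adjusted p 0.133). klf9 was lowest at CT6 and hsd11b2 at CT2. dusp1 of the same list went the other way, highest at CT6 (12.26) and lowest at CT18 (10.78), with an adjusted p of 0.228. In this list 5 of 12 kept genes (41.7%) passed at an unadjusted p under 0.05, against 15.6% of all genes. The count was 2 (16.7%) without CT2 or without CT6, when 13.2% and 12.16% of all genes passed. Leaving out any other single array gave 4 to 6, so the excess over all genes rests largely on CT2 and CT6.

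The shares of 4 housekeeping groups were below the 15.6% of all genes with all 6 arrays. At an unadjusted p under 0.05, 9 of 69 ribosomal protein genes (13%), 10 of 83 respiratory chain genes (12%), 5 of 37 proteasome genes (13.5%) and 1 of 15 cell cycle genes (6.67%) passed. Without single arrays the counts were 0 to 10 for the ribosome, 0 to 16 for the respiratory chain (16, or 19.3%, without CT22, when 16.5% of all genes passed) and 2 to 4 for the proteasome. Of the 10 respiratory chain genes, 9 had their fitted peak between CT0 and CT4, the window that also holds 279 (29.5%) of the 945 genes at that threshold. The respiratory chain count was 0 without CT14 and 2 (2.41%) without CT2, when 9.31% and 13.2% of all genes passed. For glycolysis and the citric acid cycle the share was above it, with 9 of 37 (24.3%) passing. Without CT14 the count was 4 (10.8%), when 9.31% of all genes passed. tpi1a, a triose phosphate isomerase, had its peak at CT8.7 (adjusted p 0.134) and eno1b, an enolase, at CT5.2 (0.135). No gene of these groups was called.

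**Figure D5:**
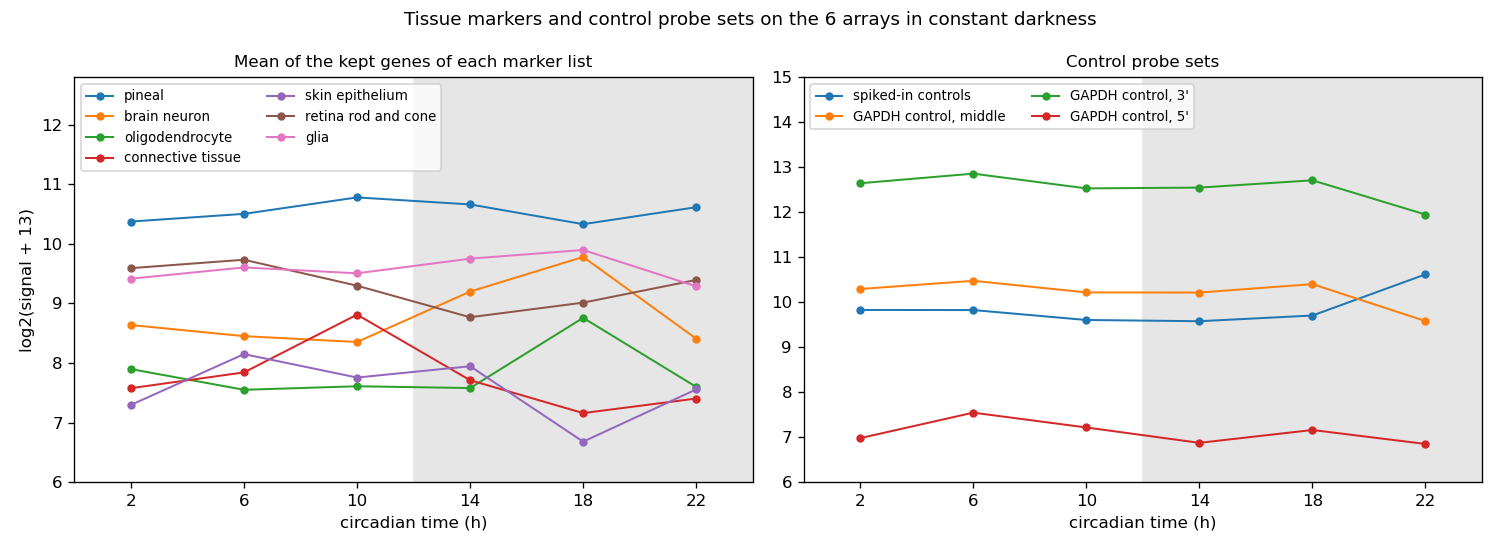
Mean log2(signal + 13) of the kept genes of 7 marker lists (left) and of control probe sets (right) against circadian time in h, with 1 point per array and subjective night shaded. The brain neuron list is highest at CT14 and CT18, the connective tissue list at CT10 (8.81) and the oligodendrocyte list at CT18 (8.76), and the spiked-in controls are highest at CT22 (10.62).

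Markers of other tissues also differed between single pools. The connective tissue list was highest at CT10, where col1a2, a fibrillar collagen, read 11.40 against 6.99 to 9.17 on the other arrays. The keratin gene krt5 read 7.20 at CT18 and 9.06 at CT22 against 9.78 to 11.74 at the other times. The mean of the skin list was lowest at CT18 (6.68). Its members did not all go this way: krt18a.1, another keratin gene of the list, was highest at CT18 (9.12, against 7.64 to 8.35 elsewhere). Without CT18 krt5 was called, at an adjusted p of 0.0423. On the CT22 array the spiked-in hybridisation controls were highest and the GAPDH control probe sets lowest, and this array correlated least with the others (mean Pearson r 0.903, against 0.912 to 0.934). What part these differences between pools had in the fitted rhythms was not tested beyond the fits without single arrays and the fit with the spiked-in level given under the processing.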

How the data were processed

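The measurements are intensities of a 1-colour Affymetrix zebrafish array, deposited by the authors as linear signals that were made with GCOS and MAS5, per the submitters' processing notes. RNA was amplified in 2 oligo(dT)-primed rounds per the labels' protocols, so that the values weigh 3′ ends. On each of the 6 arrays the mean signal without the lowest and highest 2% was about 199.9, and median signals were 70.3 to 94.7. The number of arrays limits the precision.

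Of 15617 probe sets, 115 controls were left out. The platform table gave 10795 of the others 1 symbol, 135 several and 4572 none. Log2(signal + 13) was taken, and probe sets above the 40th percentile of the mean over the 6 arrays were kept. limma 3.58.1 in R 4.3.3 (eBayes with an intensity trend) fitted a 24 h cosine with 3 residual degrees of freedom and night minus day with 4. Fits were tested on simulated data. Single measures were compared by an exact permutation test over 20 divisions of the arrays.

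Named were the 20 leading genes of the cosine, the 10 largest non-overlapping differences in each direction, and fixed clock and pineal genes. Up to 6 called or else the 3 leading genes of each list were also named, but only some of these list genes are described above. Members and lists were chosen with earlier results of these data known, and a few wrong synonym matches were removed from the lists after the values were seen. Alternatives were the added value, the filter, quantile normalization, eBayes without trend or robust, the spiked-in level as covariate, and leaving out each array. The arrays of the light-treated fish were not used here.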

Additional observations from a re-analysis of the deposited data

Results flagged for a closer look

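On the 6 arrays, 4 measures had 1 array far from the others, with the gap to its nearest neighbour exceeding Dixon's 95% critical share of the whole range. Chance gives about 1 such flag in 20 groups, and 24 measures were examined. The mean of the 18 spiked-in control probe sets was 10.62 at CT22 and 9.58 to 9.83 at the other times, a gap of 0.76 of the range. The GAPDH control of the 3′ end was 11.95 at CT22 against 12.53 to 12.86 (0.639), and that of the middle of the transcript 9.58 against 10.21 to 10.47 (0.708). The mean of the oligodendrocyte list was 8.76 at CT18 against 7.55 to 7.90 (0.712), with mbpa at 10.48 and cd59a at 12.00 on that array. Of its 8 genes, 5 were highest at CT18, and sox10 was lowest there (8.65, against 9.77 at CT2).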

How the results depend on the processing

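The 20 called probe sets of the cosine became 1 without the intensity trend (ciarta), 42 with robust eBayes (19 shared with the 20) and 50 with the spiked-in level as a covariate (17 shared). Leaving out single arrays gave 4 to 115, with 4 without CT2, 10 without CT14 and 115 without CT22, and all 20 were among the 115. With 1 or 50 added, no filter, the 60th percentile or quantile normalization the counts were 20, 23, 26, 20 and 15. The count of day against night, 0, became 16 with the spiked-in level and ran from 0 to 53 over the arrays left out, with 53 without CT22. Under quantile normalization nfil3-5, rorcb and rbp3 were not called. The fitted phase turned by more than 6 h in exorh (amplitude 0.61 with the spiked-in level, 0.20 to 0.48 without single arrays), cry1a (0.0514 to 0.431 without single arrays) and the red blood cell gene epb41b, where the cosine amplitude of epb41b was 0.0295 with the spiked-in level. None of the 3 was called. The cause was not tested. No paired analysis was possible because each time point has 1 array and the numbers of the arrays within a side do not pair them. Signals near the added value of 13 have no usable order.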

Other observations

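adcyap1b, which encodes the neuropeptide PACAP, read 6.37, 5.81, 5.73, 7.35, 8.63 and 6.33 from CT2 to CT22 on the log2 scale, with an adjusted p of 0.185 in the cosine fit to 6 arrays and 0.0218 without CT22. The day mean of adcyap1b, 5.97, was under the filter's 6.069. It was therefore kept only through its night arrays, and these adjusted p-values are no support for a rhythm. Its 2 highest arrays, CT18 and CT14, were also those with the highest mean of the brain neuron list. The red blood cell list had no member of 11 at an unadjusted p under 0.05 and a median amplitude of 0.22. Of the immediate early genes, 7 of 38 passed (18.4%, against 15.6% of all genes), 5 of them with a fitted peak between CT16 and CT20, where 125 of the 945 genes at that threshold (13.2%) also peaked, and 4 to 12 passed without single arrays.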
